A study of Macaca mulatta with 10 samples.

Results

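The pyruvate dehydrogenase switch comprises the enzymes that set whether pyruvate enters the mitochondrial acetyl-CoA pool. The set described here was a list of 10 genes, the kinases PDK1, PDK2, PDK3 and PDK4, the phosphatases PDP1 and PDP2, the complex subunits PDHA1, PDHB and DLAT, and the pyruvate carrier subunit MPC2. Members were all probe sets that the platform annotation paired with exactly 1 of these symbols. That gave 8 of the 52865 probe sets on the array, covering 6 of the 10 genes: 1 probe set each for PDK1, PDK2, PDK3 and PDK4, and 2 each for PDP1 and DLAT. PDHA1, PDHB and PDP2 had no probe set paired with their symbol, and the 2 probe sets of MPC2 carry a further symbol, so these 4 genes are not analysed here.

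The pyruvate dehydrogenase complex oxidises pyruvate to acetyl-CoA inside mitochondria, a step that commits glucose carbon to the citric acid cycle or to fat. Pyruvate dehydrogenase kinases phosphorylate the E1 subunit and switch the complex off, and the phosphatases remove the phosphate and switch it on. PDK4 is the isoform best known for transcriptional control: fasting, fatty acids acting through PPARA, FOXO1 and glucocorticoids raise it, and insulin lowers it, which in fasted liver keeps pyruvate available for gluconeogenesis.

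RNA from whole liver of 10 rhesus macaques was measured on a 1-colour oligonucleotide array, each animal on its own array. The 5 brain-dead donors had brain death induced by a balloon inflated outside the dura, lasting 6 h in the labels of the samples but 5 h in the design text of the series, with lactated Ringer's fluid and vasopressin, dopamine or both to hold blood pressure. The 5 control animals were living donors sedated, anaesthetised and ventilated for 1 h, so brain death cannot be told apart from the longer ventilation, the fluids or the pressor drugs. Control animals 1 to 3 were females of 16, 10 and 4 years and control animals 4 and 5 males of 20 and 10 years. Brain-dead animals 1 and 2 were females of 7 and 18 years and brain-dead animals 3 to 5 males, of 7 years where an age is given (animals 4 and 5). Livers were flushed with UW preservation solution before recovery, and nutrition before sampling is not given in the labels. The p-values measure the spread between these arrays, each taken as a separate animal.

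The deposited signals share a common scale, with array medians between 175 and 227. Among 7 hepatocyte markers with a probe set, none lay below the array median on all arrays. The array of control animal 4 stood apart from the rest: of 9 markers of cardiac and skeletal muscle, 8 were highest on it and 6 were at least 5 times higher than on any other array. The summed muscle marker signal was 48444 on that array and 949 to 1587 on the other arrays. Myosin light chain MYL2 read 18090, myoglobin MB 11736 and cardiac troponin TNNI3 3710 there. The arrays of both animals numbered 1 deviated from their group means together (r = 0.38 across probe sets), more than other same-numbered arrays did (0.0643 to 0.128). Calls that changed without these arrays are named beside the results or counted there among the alternatives. The summed signal of 7 neutrophil markers was 1119 to 6382 in the controls and 8109 to 57039 in the brain-dead animals. Of 5 of them that were tested, the calprotectin subunits S100A8 and S100A9 rose, by 3.86 and 3.54 on the log2 scale (limma with Benjamini-Hochberg, adjusted p = 0.0128 and 0.00911). In brain-dead animal 5, which had the highest sum, S100A8 read 23242 and S100A9 32408. No other tested marker was called. CSF3R read 146 to 432 in controls and 274 to 598 in brain-dead animals, ELANE 199 to 344 and 112 to 388, and FPR1 238 to 634 and 221 to 450. S100A12 was dim, at 21 to 79 and 103 to 343. MPO lay below the array median on all arrays, and the part of these markers in the results below was not tested. In whole liver, fewer cells of a type and less RNA per cell cannot be told apart.

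PDK4 was lower in every brain-dead animal than in every control. Its signal was 8959, 4781, 8263, 1677 and 1826 in control animals 1 to 5 and 1020, 604, 438, 1395 and 119 in brain-dead animals 1 to 5. The groups did not overlap, but the gap between them was narrow, since the lowest control stood 1.20 times above the highest brain-dead animal. Brain-dead animal 5 was the lowest of all and the only one under its array's median. Mean signals were 5101 ± 3444 in controls and 715 ± 500.2 in brain-dead animals (SD, n = 5 each).

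On the log2 scale PDK4 changed by -2.91 ± 0.64 (SE, n = 5 per group, 95% interval -4.30 to -1.53), a 7.53-fold lower geometric mean (limma with Benjamini-Hochberg, adjusted p = 0.0219). The two-sided exact permutation test over animals gave p = 0.00794, the smallest that 5 against 5 allows. Of 26653 probe sets tested, 3.39% were called lower in brain death and 2.72% higher, 6.10% in either direction, and for 3.6% every brain-dead animal was below every control. Of the 7 member probe sets tested, 1 was called lower, that of PDK4, and none higher. The PDK4 fall was the 13th largest by size among 9835 genes and the 276th by p-value.

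The call depended on single arrays. Without control animals 1, 2 or 3 the change was -2.63, -2.85 and -2.66 (limma with Benjamini-Hochberg, adjusted p = 0.0547, 0.0550 and 0.0549), and without both animals numbered 1 it was -2.86 (adjusted p = 0.0602). The range over 21 alternatives was 0.0111 to 0.0602. Without control animal 4, whose array carried the muscle transcripts, the change was -3.23 (limma with Benjamini-Hochberg, adjusted p = 0.0145). The smallest change, -2.37, came without brain-dead animal 5, whose signal of 119 lay under its array median of 178. The size of the fall thus rests partly on that dim value.

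**Figure D1:**
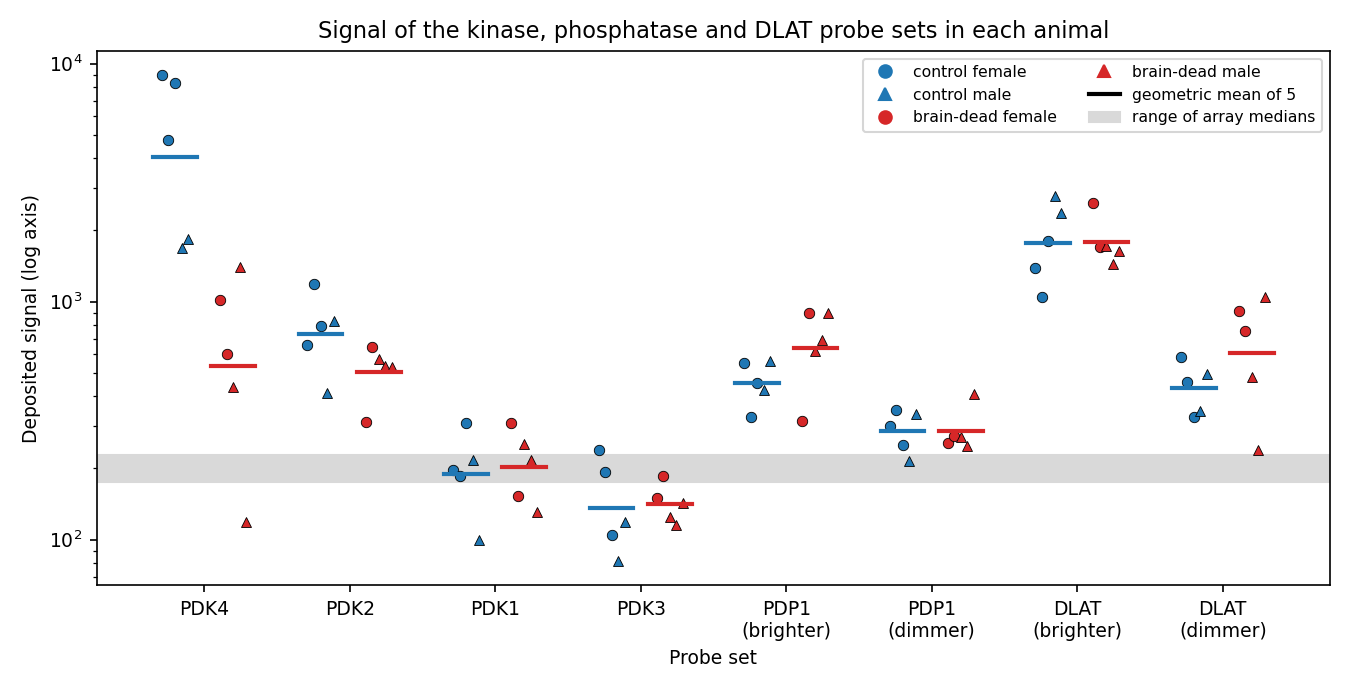
Deposited signal (log axis) of the 8 probe sets in each of the 10 animals, control in blue and brain-dead in red, circles for females, triangles for males, bars for geometric means of 5 and a grey band for the range of array medians (175 to 227). PDK4 is the probe set whose groups do not overlap, from 1677 upward in controls and from 1395 downward in brain-dead animals, while PDK1 and PDK3 scatter about the band.

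Within each group PDK4 varied more than most genes. The highest control was 5.34 times the lowest, and the highest brain-dead animal 11.7 times the lowest. Its pooled SD within groups was 1.27 on the log2 scale, at the 98.5th percentile of the genes measured, whose median SD was 0.43. PDK1, PDK2, PDP1 and DLAT, each at its brightest probe set, had pooled SDs of 0.461 to 0.552.

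Part of the spread of PDK4 ran along sex in the controls, a pattern noticed after the values were seen. The 3 control females read 4781 to 8959 and the 2 control males 1677 and 1826, and control animal 4 is one of these males. The female minus male difference in controls was 2.02 ± 0.76 on the log2 scale and did not pass (limma with Benjamini-Hochberg, adjusted p = 0.413, unadjusted p = 0.0224). In the brain-dead animals the 2 females, at 604 and 1020, lay inside the male range of 119 to 1395. None of the 26653 probe sets passed for sex in controls, although 10.5% had an unadjusted p under 0.05 in limma. Since the control group held more females than the brain-dead group, PDK4 was also compared within each sex. The change was -3.17 ± 0.76 in females (3 controls, 2 brain-dead) and -2.07 ± 0.76 in males (2 controls, 3 brain-dead). Neither passed alone (limma with Benjamini-Hochberg, adjusted p = 0.0794 and 0.298), and the interaction of group with sex had an adjusted p of 1.00. With sex in the model the change was -2.62 ± 0.54 (limma with Benjamini-Hochberg, adjusted p = 0.0186).

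The other kinases had smaller differences, none past the threshold. PDK2, the widely expressed isoform of liver, read 658, 1193, 790, 414 and 831 in control animals 1 to 5 and 311, 642, 573, 539 and 529 in brain-dead animals 1 to 5. Control animal 4 and brain-dead animal 1 were the low values of their groups, and the groups overlapped. The PDK2 change was -0.54 ± 0.29 (95% interval -1.17 to 0.08, limma with Benjamini-Hochberg, adjusted p = 0.278). It was -0.75 ± 0.26 without control animal 4 and -0.37 ± 0.28 without brain-dead animal 1, neither a call (adjusted p = 0.0982 and 0.463). By sex it was -0.93 ± 0.41 in females and -0.10 ± 0.41 in males, with no call in either (limma with Benjamini-Hochberg, adjusted p = 0.304 and 0.954).

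PDK1, an isoform known as a target of hypoxia-inducible factor, read 197, 186, 308, 217 and 100 in the controls and 310, 152, 253, 217 and 131 in the brain-dead animals, in order of their numbers. These values lay about the array medians, above them on 5 of 10 arrays, and the groups covered nearly the same range. Its change was 0.10 ± 0.36 (95% interval -0.69 to 0.88, limma with Benjamini-Hochberg, adjusted p = 0.903). PDK3 read 238, 192, 105, 81 and 119 in the controls and 149, 186, 124, 115 and 142 in the brain-dead animals. It was above the array median on 1 array, fell under the filter for dim probe sets and was not tested, so these data give little on its level.

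The kinases were then set against each other within animals, to ask whether PDK4 changed by a different amount. The log2 difference of PDK4 minus PDK2 averaged 2.46 ± 1.09 in controls and 0.09 ± 1.55 in brain-dead animals (SD, n = 5), a shift of -2.37 (two-sided exact permutation p = 0.0238). Against PDK1, whose signal lay about the array medians, the shift was -3.01 with groups that did not overlap (exact permutation p = 0.00794). PDK1 itself changed by 0.10, so this shift nearly repeats the change of PDK4 alone (-2.91) and adds little to it. Over the 3 kinase pairs computed, the Benjamini-Hochberg adjusted exact p-values were 0.0238 against PDK2 and 0.0119 against PDK1. The pair with PDK3 is not read as a comparison, since that probe set was too dim to be tested. It still entered this adjustment, with an exact permutation p of 0.00794, which makes the adjusted value against PDK1 smaller. The shift against PDK2 did not pass without control animal 1 (-2.05) or control animal 3 (-2.14), with an exact permutation p of 0.0635 in each case. Without control animal 4 it did pass, and the shift against PDK1 passed whichever single animal was left out. Only the change between groups can be read from these differences, since levels of different probe sets are not comparable.

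PDP1, the calcium-stimulated phosphatase that reactivates the complex, had 2 probe sets that differed. The brighter read 554, 327, 454, 424 and 563 in the controls and 314, 893, 622, 688 and 898 in the brain-dead animals. Brain-dead animal 1 read lowest of all 10, and the other 4 brain-dead animals lay above every control. The change was 0.49 ± 0.29 (95% interval -0.14 to 1.12, limma with Benjamini-Hochberg, adjusted p = 0.337), and 0.75 ± 0.24 without brain-dead animal 1, again not past the threshold (adjusted p = 0.0864). The dimmer probe set read 299, 350, 249, 215 and 337 in the controls and 254, 273, 270, 247 and 408 in the brain-dead animals. Its change was 0.00 ± 0.25 (95% interval -0.54 to 0.54, limma with Benjamini-Hochberg, adjusted p = 0.998), and its sign turned under 10 of 20 alternatives, quantile normalization and centring on array medians among them.

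DLAT, the E2 core of the complex that carries the lipoyl arms and docks the kinases, also had 2 probe sets and no call. The brighter read 1376, 1051, 1788, 2772 and 2352 in the controls and 2599, 1705, 1706, 1437 and 1636 in the brain-dead animals. The highest control value was that of animal 4, whose array carried muscle transcripts. The change was 0.02 ± 0.28 (95% interval -0.59 to 0.62, limma with Benjamini-Hochberg, adjusted p = 0.982), and it became 0.18 without control animal 4. The dimmer read 583, 461, 327, 348 and 499 in the controls and 913, 751, 481, 238 and 1051 in the brain-dead animals. Here 3 brain-dead animals lay above every control and 1 below all of them, with a change of 0.49 ± 0.37 (95% interval -0.30 to 1.27, limma with Benjamini-Hochberg, adjusted p = 0.453).

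**Figure D2:**
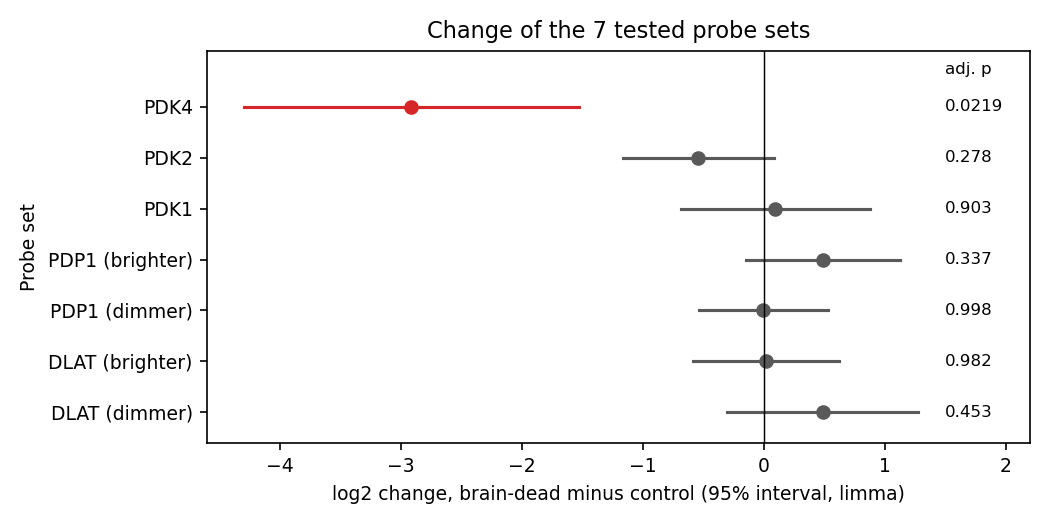
log2 change (brain-dead minus control) of the 7 tested probe sets with 95% intervals from limma, and Benjamini-Hochberg adjusted p-values at the right. The interval of PDK4 runs from -4.30 to -1.53, and each of the other 6 includes 0.

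The genes around the switch were described by 9 lists, holding 129 genes in all, of which 93 were measured. Of these 93, 9 fell and 1 rose (limma, Benjamini-Hochberg adjusted p under 0.05), or 9.68% and 1.08%, beside 3.87% and 2.90% of the 9835 genes measured. Their median change was -0.36, beside -0.01 over all genes, and 69 (74.2%) had a change below 0, beside 50.5% of all genes. The lists were chosen with earlier results of these data known. These shares and those of the single lists below are therefore a description, and no excess over all genes was tested. Counts depended on single arrays: 10 genes passed with all arrays, 6 without control animals 1, 2 or 5 or brain-dead animals 3 or 5, 5 without control animal 3, 16 without control animal 4 and 2 without both animals numbered 1. Those 2 were SIRT5 and IDH1, so every other call of these lists was lost without both animals numbered 1.

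Of 5 measured genes among other subunits and regulators of the complex, 1 fell. This was SIRT5, a mitochondrial desuccinylase that acts on the complex among other targets, with signals of 1176 to 1898 (median 1523) in controls and 516 to 1054 (median 581) in brain-dead animals. The groups did not overlap, and the change of -1.23 ± 0.24 passed (limma with Benjamini-Hochberg, adjusted p = 0.0130) and did so under all 21 alternatives. A second SIRT5 probe set, at -0.81, missed the threshold (adjusted p = 0.0809). The structural subunits DLD, the E3 component, and PDHX, the E3-binding protein, were named after their values were seen. Their changes were 0.18 ± 0.26 and 0.12 ± 0.19, neither past the threshold (limma with Benjamini-Hochberg, adjusted p = 0.721 and 0.759).

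Upstream of the complex, 2 of 14 measured genes of pyruvate supply and its other fates fell and none rose. PKLR, the pyruvate kinase of hepatocytes, read 441 to 1569 in controls and 148 to 371 in brain-dead animals, with no overlap and a change of -1.85 ± 0.39 (limma with Benjamini-Hochberg, adjusted p = 0.0178). Brain-dead animals 1, 3 and 5 read 151, 148 and 150, under their array medians of 215, 212 and 178. The size of the PKLR change thus rests partly on dim values, and it was -1.57 with a pseudocount of 64. LDHD, the D-lactate dehydrogenase of mitochondria, read 1386 to 2550 in controls and 501 to 1104 in brain-dead animals. Its change of -1.03 ± 0.27 passed (limma with Benjamini-Hochberg, adjusted p = 0.0390) but lost its call under 12 of 21 alternatives, with adjusted p from 0.0282 to 0.0991. The PKLR call was lost without both animals numbered 1 (limma with Benjamini-Hochberg, adjusted p = 0.0771). Downstream, 1 of 14 measured genes of citrate synthesis, the citric acid cycle and citrate export fell. It was IDH1, the cytosolic NADP-dependent isocitrate dehydrogenase and not a cycle enzyme, which read 39160 to 58030 in controls and 8490 to 22223 in brain-dead animals. The change was -1.55 ± 0.29 (limma with Benjamini-Hochberg, adjusted p = 0.0112), its other probe set fell by 1.73 on the log2 scale, and it passed under all 21 alternatives. None of the other 13 genes of that list passed with all arrays, while 12 of the 14 (85.7%) had a change below 0, beside 50.5% of all genes. The citrate carrier SLC25A1, at -0.62 with all arrays, passed at -0.87 without control animal 4 (limma with Benjamini-Hochberg, adjusted p = 0.174 and 0.0185).

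Among 7 measured genes of lipoate and thiamine supply, 1 rose. LIPT1, a lipoyltransferase, read 425 to 1105 in controls and 921 to 1559 in brain-dead animals, groups that overlap because control animal 4 read 1105. Its change of 1.02 ± 0.27 passed (limma with Benjamini-Hochberg, adjusted p = 0.0430) and lost its call under 13 of 21 alternatives, with adjusted p from 0.0116 to 0.106. Without control animal 4 the change was 1.23 ± 0.24 (limma with Benjamini-Hochberg, adjusted p = 0.0116). The branched-chain ketoacid dehydrogenase is a sister complex with its own kinase of the same family, and 0 of its 4 measured genes passed (0 also under each of the 21 alternatives). Its kinase BCKDK had a change of 0.36 ± 0.21 and its phosphatase PPM1K one of -0.41 ± 0.55 (limma with Benjamini-Hochberg, adjusted p = 0.324 and 0.696).

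**Figure D3:**
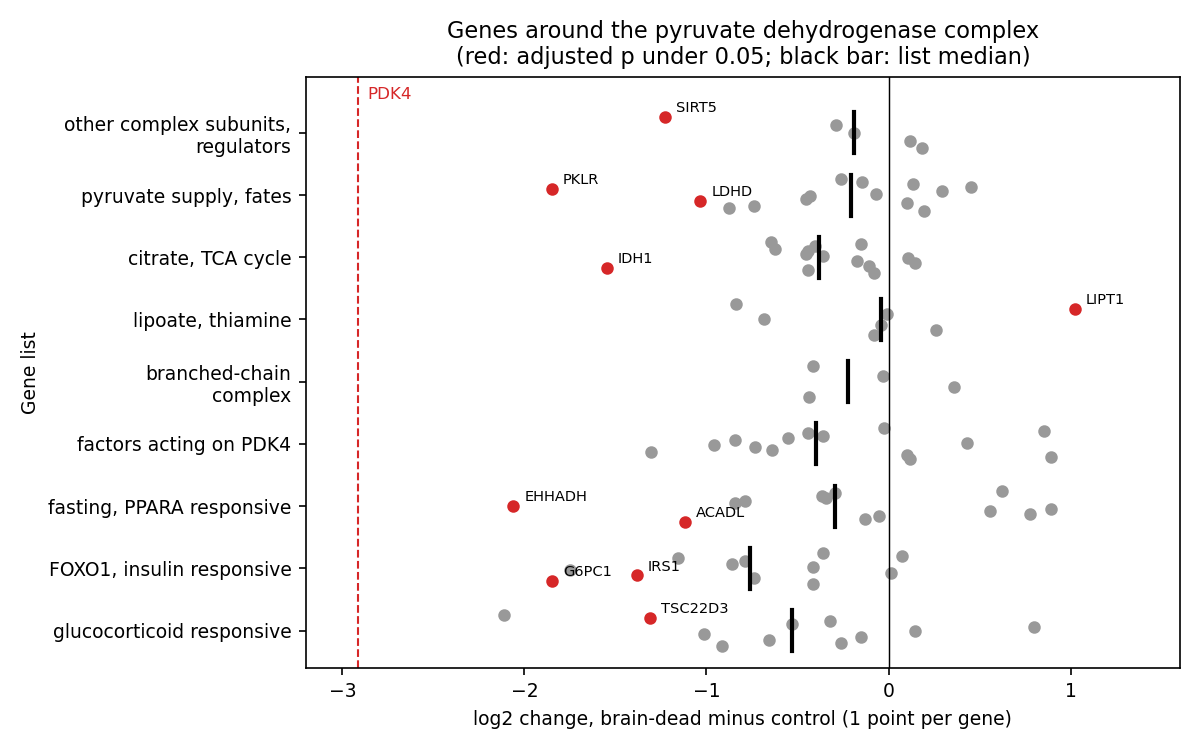
log2 change (brain-dead minus control) of each measured gene in the 9 lists, 1 point per gene, red where the Benjamini-Hochberg adjusted p from limma is under 0.05, with a black bar at each list's median and a dashed line at PDK4 (-2.91). The 9 genes that fell lie between -2.06 (EHHADH) and -1.03 (LDHD), all nearer 0 than PDK4, and LIPT1 is the gene that rose.

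Of the 14 measured receptors and factors known to act on PDK4 none passed. A change below 0 was seen in 9 (64.3%, beside 50.5% of all genes), and the median was -0.40. The brightest of the 14, CREB3L3 and AKT2, had changes of 0.90 ± 0.37 and 0.12 ± 0.22 (limma with Benjamini-Hochberg, adjusted p = 0.162 and 0.788). Other probe sets of CREB3L3 were at 1.01, 0.90 and 0.55 (adjusted p = 0.0995, 0.252 and 0.374) and that of AKT2 at 0.12 (adjusted p = 0.889), none past the threshold. The best known of these regulators were named after their values were seen. PPARA, the fatty acid receptor, had a change of -0.96 ± 0.34 and the glucocorticoid receptor NR3C1 one of -0.64 ± 0.36 (limma with Benjamini-Hochberg, adjusted p = 0.112 and 0.300). FOXO1, the factor that insulin restrains, had a change of 0.10 ± 0.25, and KLF15, a fasting-induced factor, one of -1.31 ± 0.39 (limma with Benjamini-Hochberg, adjusted p = 0.854 and 0.0647). The count of this list was 1 under 5 of 21 alternatives. KLF15 passed with the filter at the 75th percentile (-1.31), without control animal 4 (-1.48) and without brain-dead animal 4 (-1.59), with limma with Benjamini-Hochberg, adjusted p = 0.0487, 0.0410 and 0.0363. PPARA passed with the replicate number as a block (limma with Benjamini-Hochberg, adjusted p = 0.0298), and CREB3L3 without brain-dead animal 2, at 1.24 (adjusted p = 0.0250).

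Genes that share PDK4's known inputs were described in 3 lists. Of 13 measured fasting and PPARA responsive genes, 2 fell and none rose, and the median change was -0.29 (0 to 3 called across alternatives). EHHADH, the bifunctional enzyme of peroxisomal oxidation, had mean signals of 8228 ± 1615 in controls and 2409 ± 1723 in brain-dead animals (SD, n = 5), a change of -2.06 ± 0.42 (limma with Benjamini-Hochberg, adjusted p = 0.0167). ACADL, the long-chain acyl-CoA dehydrogenase, changed by -1.12 ± 0.24 (limma with Benjamini-Hochberg, adjusted p = 0.02), while a second probe set, at -0.54, missed the threshold. EHHADH lost its call without both animals numbered 1 (limma with Benjamini-Hochberg, adjusted p = 0.0544). ACADL lost it there too, without control animal 3, and when the model held sex and age, a fit that left out brain-dead animal 3 (adjusted p = 0.0545, 0.0520 and 0.0541). CPT1A and ANGPTL4, 2 further PPARA targets named after their values were seen, had changes of 0.56 ± 0.56 and 0.77 ± 0.49, neither past the threshold (limma with Benjamini-Hochberg, adjusted p = 0.591 and 0.360). In this list 9 of the 13 genes (69.2%) had a change below 0, beside 50.5% of all genes. FABP1 (-0.84) and FGF21 (-0.79) were among the 9 and did not pass (adjusted p = 0.349 and 0.446).

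Of 12 measured FOXO1 and insulin responsive genes, 2 fell and none rose, with a median change of -0.76. The count ran from 0 to 4 across 21 alternatives. With the replicate number as a block it was 4, adding MTTP, the lipoprotein assembly protein, at -1.75 and the sestrin SESN3 at -1.15 (limma with Benjamini-Hochberg, adjusted p = 0.0172 and 0.0362). MTTP also passed in the fit on sex and age, which left out brain-dead animal 3 (-1.66), and without brain-dead animal 2 (-2.08), and SESN3 without control animal 4 (-1.37), with limma with Benjamini-Hochberg, adjusted p = 0.0304, 0.0461 and 0.0457. IRS1, an insulin receptor substrate, had signals of 868 ± 142 in controls and 350.2 ± 137 in brain-dead animals (mean ± SD, n = 5). It changed by -1.38 ± 0.28, and its other probe set by -1.16 (limma with Benjamini-Hochberg, adjusted p = 0.0147 and 0.0178), a call lost without both animals numbered 1 (0.0553). G6PC1, the glucose-6-phosphatase of glucose release, changed by -1.85 ± 0.50 (limma with Benjamini-Hochberg, adjusted p = 0.0460) and lost its call under 13 of 21 alternatives, with adjusted p from 0.0242 to 0.129. Its other probe sets, at -1.51 and 0.46, did not pass. In the FOXO1 and insulin list 10 of the 12 genes (83.3%) had a change below 0, beside 50.5% of all genes. IRS2 (0.01) and SREBF1 (0.07) were above 0 and TRIB1 was at -0.36. None of these 3 passed (limma with Benjamini-Hochberg, adjusted p = 0.980, 0.922 and 0.580). Among 11 measured glucocorticoid responsive genes 1 fell (0 to 4 called across alternatives), and the median change was -0.53. A change below 0 was seen in 9 of the 11 (81.8%, beside 50.5% of all genes). SGK1 (0.80) and SDS (0.15) were above 0 and FKBP5 was at -0.26. None of these 3 passed (limma with Benjamini-Hochberg, adjusted p = 0.120, 0.943 and 0.708). TSC22D3, the glucocorticoid-induced leucine zipper, changed by -1.31 ± 0.34 with overlapping groups (limma with Benjamini-Hochberg, adjusted p = 0.0374) and lost its call under 11 of 21 alternatives, with adjusted p from 0.0181 to 0.114. Without control animal 4, 3 further genes of that list fell: the circadian repressor PER1 (-1.17), the phosphatase DUSP1 (-1.14) and glutamine synthetase GLUL (-0.80) (limma with Benjamini-Hochberg, adjusted p = 0.0317, 0.0399 and 0.0252).

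The genes most like PDK4 in how they varied among animals were ranked by Pearson's r over the 10 arrays after each group's mean was subtracted, among 9835 genes. As the top of such a ranking these values are a description with no test, and the arrays share their RNA and scaling. The highest 5 were MDC1 (r = 0.941), BTN2A2 (0.935), GAA (0.927), CDC42SE2 (0.926) and LAMA2 (0.916). GAA, the lysosomal acid glucosidase that degrades glycogen, was the one of these 5 that passed between groups, with a change of -1.10 ± 0.27 and no overlap (limma with Benjamini-Hochberg, adjusted p = 0.0301). It read 3065, 2914, 2354, 1741 and 2029 in control animals 1 to 5 and 1342, 1182, 1073, 1531 and 633 in brain-dead animals 1 to 5. As for PDK4, control animal 4 was the lowest control, and brain-dead animals 4 and 5 were the highest and the lowest of their group. Its call was lost under 7 of 21 alternatives, with adjusted p from 0.0202 to 0.0789, the highest being the fit without both animals numbered 1. MDC1 and BTN2A2 had changes of 0.03 ± 0.22 and 0.04 ± 0.31, and CDC42SE2 and LAMA2 of -0.31 ± 0.28 and -0.42 ± 0.23, none past the threshold (limma with Benjamini-Hochberg, adjusted p = 0.956, 0.962, 0.547 and 0.295).

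**Figure D4:**
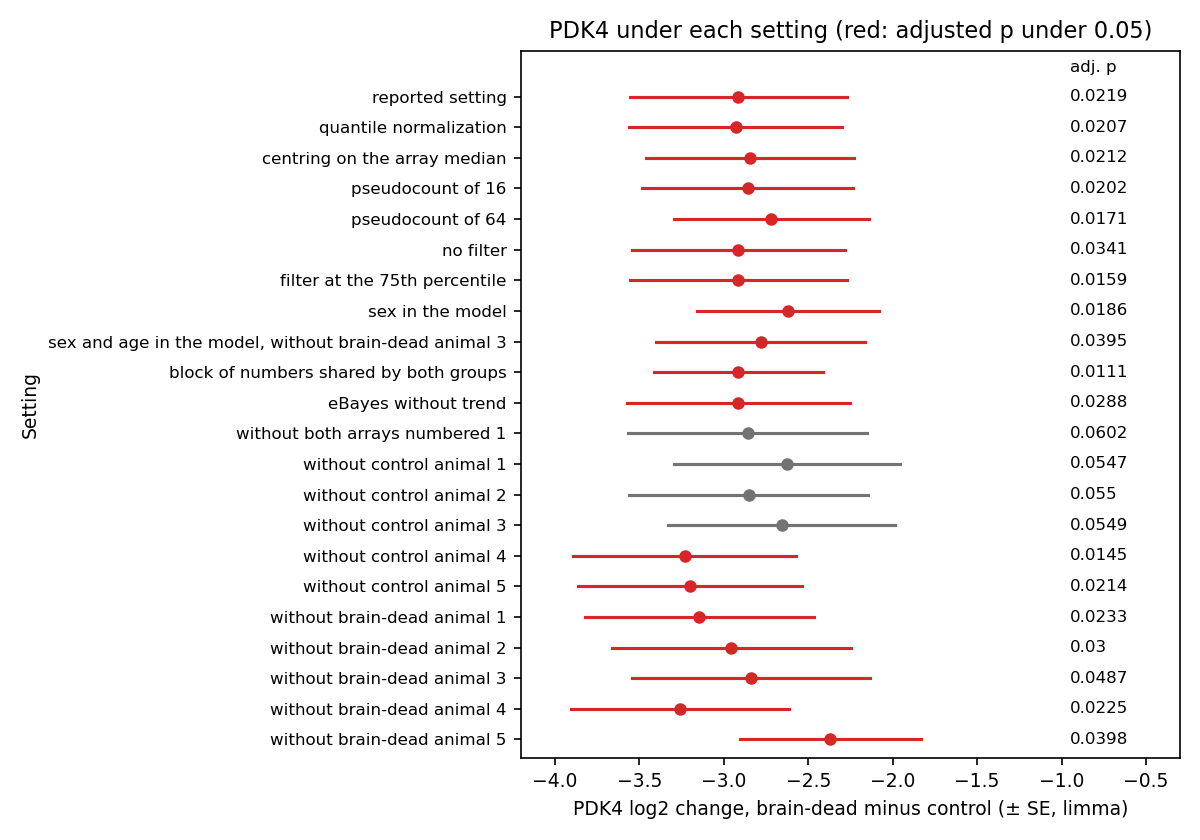
PDK4 log2 change (brain-dead minus control, ± SE from limma) under the reported setting and 21 alternatives, with Benjamini-Hochberg adjusted p-values at the right. The change stays between -3.26 and -2.37, and the 4 grey settings, with adjusted p from 0.0547 to 0.0602, leave out control animal 1, 2 or 3 or both animals numbered 1.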

How the data were processed

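Liver RNA of 10 macaques was labelled with biotin and hybridised with 1 array per animal. The values the authors deposited are linear intensities, 1 for each array's probe sets, computed with MAS5 per the submitters' processing notes (version and genome build not given in the sources used here). Every array had a 2% trimmed mean of 1000. MAS5 signals of dim probe sets are noisy, and no detection calls were used here.

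Signals were put on the log2 scale without a pseudocount. The 99 control probe sets were left out, and probe sets above the array median on at least 5 of 10 arrays were kept (26653). Genes were named from the 2016 platform annotation, where 24969 probe sets had 1 symbol, 361 several and 27535 none; 24629 were matched to current symbols in the RefSeq gene table. Groups were compared with limma 3.58.1 under R 4.3.3 (lmFit, then eBayes with a trend), with no covariate and Benjamini-Hochberg adjustment across the probe sets that remained, threshold 0.05. A gene was represented by its brightest probe set. Exact permutation tests were two-sided. Files were read with the R package data.table (version 1.17.8), and figures drawn with matplotlib 3.10.9.

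Genes named by a rule were all members, up to 3 called genes of each list (or its 2 brightest), and the 5 genes most like PDK4. Further list genes were named after their values were seen, some of them because they passed under an alternative. Members and lists were chosen with earlier results of these data known. No sequences are printed, since the tables used here hold none.

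Alternatives were another normalization, centring, pseudocounts, filters, sex and age in the model, a replicate block, eBayes without trend, and leaving out each animal or both numbered 1. The code was tested on simulated data with known changes, drawn with the spread of each probe set. Log2 changes of 1, 2 and 3 were called in 25.4%, 78% and 91.4% of cases, and 16 of 144 calls were false, a larger share than the threshold of 0.05. The simulation changed 71, 59 and 70 probe sets and drew each value independently, while 1627 were called in the data. These shares therefore need not hold for the real fit. A change that did not pass is not read as absent, least of all one of 1 or less. The number of arrays limits the precision.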

Additional observations from a re-analysis of the deposited data

Results flagged for a closer look

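In each group of 5 animals the gap of the most extreme animal to its neighbour was divided by the group's range, on the log2 scale. A ratio above 0.71 marked an animal far from the others, which chance gives in about 1 of 20 groups. It was met in 5 of 54 groups, 3 of them among the 16 groups of the 8 member probe sets.

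PDK2 in brain-dead animal 1 read 311, with the next at 529 (ratio 0.734). The dimmer PDP1 probe set in brain-dead animal 5 read 408, with the next at 273 (ratio 0.80). The brighter DLAT probe set in brain-dead animal 1 read 2599, with the next at 1706 (ratio 0.711). On the dimmer DLAT probe set animal 5 read highest, at 1051, and animal 1 read 913. IRS1 in control animal 4 read 620, with the next at 907 (ratio 0.822), on the array that carried muscle transcripts. LDHD in brain-dead animal 5 read 501, with the next at 925 (ratio 0.776). PDK4 was not among them.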

How the results depend on the processing

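PDK4 kept its direction under all 21 alternatives and its call under 17. Without both arrays numbered 1 it was -2.86 (limma, Benjamini-Hochberg adjusted p = 0.0602) and no member passed (0). Leaving out 1 animal gave -3.26 to -2.37 for PDK4 and 0 to 1 member called. Such fits hold fewer animals. The count of 1627 changed probe sets was 1056 without the filter on dim probe sets, 1035 with sex and age in the model, 3013 with the replicate block, 674 without both arrays numbered 1 and 660 to 2289 without single animals. The libraries whose absence moved it by over 1.5 times were, of the controls, animals 1 (856), 2 (660) and 3 (735) and, of the brain-dead, animals 3 (892), 4 (849) and 5 (680). The 10 changed list genes became 6 without the filter, 2 without both arrays numbered 1 and 5 to 16 without single animals. PDK2, the brighter PDP1 and the dimmer DLAT probe set kept their sign and stayed uncalled under all 20 alternatives that keep them.

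Values near 0 turned sign without passing. The dimmer PDP1 probe set became 0.0498 with quantile normalization, 0.0665 with centring and 0.0570 without both arrays numbered 1, and -0.13 to 0.0724 without single animals. PDK1 became -0.0426 without both arrays numbered 1 and ranged from -0.13 to 0.27 without single animals. The brighter DLAT probe set became -0.0337 with sex in the model and -0.21 without both arrays numbered 1, and ranged from -0.17 to 0.18. PPM1K became 0.048 and BTN2A2 -0.00942 without both arrays numbered 1, and without single animals BTN2A2 ranged from -0.10 to 0.24 and MDC1 from -0.0733 to 0.14. The shift of PDK4 against PDK2 ranged from -2.78 to -1.81 without single animals. The cause of these moves was not tested.

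Replicate numbers are shared by both groups in the labels, but same-numbered arrays had deviations correlated at 0.38, 0.0643, 0.128, 0.0889 and 0.128, and 3 of 10 arrays correlated best with their own number, so the numbers were not taken as pairs. With the replicate block PDK4 stayed at -2.91 (limma, Benjamini-Hochberg adjusted p = 0.0111), and PPARA, MTTP and SESN3 passed. Centring moved the median change of all probe sets to 0.0656.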

Other observations

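The brighter DLAT probe set had changes of opposite sign in males and females, a pattern noticed after the values were seen and not past the threshold. In males the change was -0.68 ± 0.32 (limma, Benjamini-Hochberg adjusted p = 0.425), with 2772 and 2352 in the controls against 1437 to 1706 in the brain-dead animals. In females it was 0.62 ± 0.32 (adjusted p = 0.387), with 1051 to 1788 in the controls against 1705 and 2599. The interaction of 1.30 ± 0.45 had an unadjusted p of 0.0146 and did not pass over all probe sets (limma, Benjamini-Hochberg adjusted p = 1.00), where none of 26653 passed and 3.81% had an unadjusted p under 0.05. The dimmer DLAT probe set had changes of 0.24 ± 0.52 in males and 0.90 ± 0.52 in females, with an interaction of 0.65 ± 0.74 (adjusted p = 1.00). The highest control male was animal 4, whose array carried the muscle transcripts.

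That array also had the highest summed signal of 4 erythroid markers, 61431, beside 3080 to 21428 on the others.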
